A study of Mus musculus with 11 samples.

Results

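The ADAM family was described in testis RNA of mice lacking the transcription factor RFX2. Its members were all genes in the deposited counts whose GENCODE vM21 symbol is Adam followed by a digit, which leaves out the Adamts genes and Adamdec1. They numbered 33 of the 23074 genes counted, and all 33 ADAM symbols of that annotation were present. Of these, 29 passed the filter on low counts and were tested; Adam28, Adam34, Adam6a and Adam6b did not pass.

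RNA-Seq was performed on whole decapsulated testis of 5 wild type (WT) and 6 Rfx2-/- mice at postnatal day 21 (P21). Both genotypes had a mixed background of C57BL/6, 129/Sv and FVB/N. In the null allele, exon 7 of Rfx2 had been flanked by loxP sites and removed with a ubiquitously expressed Cre (ACTB-cre), so the deletion was not limited to germ cells. Per the methods, the allele on this mixed background still held the neo selection cassette. The WT mice are called WT1 to WT5 and the Rfx2-/- mice KO6 to KO11. At P21 the most advanced cells of the first wave of spermatogenesis are early round spermatids. Bulk RNA cannot tell fewer cells of a type from less RNA per cell.

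ADAM proteins are membrane proteins with a metalloprotease and a disintegrin domain. Those with an intact zinc-binding site cut the extracellular part off other membrane proteins, a process called shedding, whereas others have lost the site and act in adhesion. The testis expresses an unusually large set. The fertilins and cyritestin sit on the sperm surface and are required for sperm migration in the oviduct and binding to the egg coat, and the testases are testis-specific members encoded by genes with an uninterrupted coding sequence. RFX2 activates genes of spermatids, many of them for the flagellum.

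The levels are given in CPM, the count of a gene relative to the size of its library after TMM scaling. Levels of different genes are compared only per kilobase of exon (RPKM). A gene was called where its p from edgeR's quasi-likelihood test, adjusted by Benjamini-Hochberg over 15745 genes, did not exceed 0.01, and fold changes are Rfx2-/- over WT. Total counts lay between 22232097 and 29769483 per mouse and were lower in Rfx2-/- (exact permutation test, two-sided, p = 0.013). A count of 3 equalled 0.0852 to 0.139 CPM. Rfx2, counted over all exons and therefore no check of the deletion of exon 7, was at 191 to 472 CPM in WT and 282 to 324 CPM in Rfx2-/- mice. The mice differed in the progress of spermatogenesis within each genotype: the summed CPM of 7 early round spermatid markers ran from 5.97 in WT5 to 257 in WT1 and from 25.9 in KO8 to 462.2 in KO7. The summed CPM of 8 spermatocyte markers was 3191 in WT3 and 3145 in WT5 against 5532 to 6831 in the other 9 mice. Its largest term was Ldhc, at 1273 and 1208 CPM in WT3 and WT5 and 2711 to 3765 CPM in the others. The markers Sycp1, Sycp3 and Hormad1 did not separate WT3 and WT5 from WT1.

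The zinc-binding signature divides the family. A histidine, a glutamate, and then 2 more histidines and a glycine at fixed spacing (HExxHxxGxxH) were encoded in the transcripts of 20 of the 33 members. The coding stretch of this site is shown for 8 genes, the testases and their closest relatives, together called testases here. They were picked with a fit described below already known, in which 6 of these 8 fell together. The role group they come from had 10 members, with Adam29 and Adam30 as well. Of its 9 tested members 6 fell. In these sequences from the GENCODE transcripts, capitals mark the codons of the signature's fixed residues. They are on chromosome 8 of GRCm38, except Adam21 on chromosome 12.
Adam24, chr8:40680518-40680550, plus strand: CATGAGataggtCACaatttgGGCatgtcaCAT
Adam25, chr8:40754761-40754793, plus strand: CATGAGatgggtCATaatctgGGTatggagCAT
Adam20, chr8:40795917-40795949, plus strand: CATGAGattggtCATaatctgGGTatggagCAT
Adam39, chr8:40825636-40825668, plus strand: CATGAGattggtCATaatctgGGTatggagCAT
Adam26b, chr8:43520947-43520979, minus strand: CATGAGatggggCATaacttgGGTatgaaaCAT
Adam26a, chr8:43569435-43569467, minus strand: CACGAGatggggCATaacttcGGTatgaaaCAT
Adam34, chr8:43651554-43651586, minus strand: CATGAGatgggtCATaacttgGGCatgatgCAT
Adam21, chr12:81559922-81559954, minus strand: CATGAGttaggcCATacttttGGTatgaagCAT
The site was identical in Adam20 and Adam39. Adam24, Adam25, Adam20 and Adam39 lie next to each other on chromosome 8, and each is encoded in 1 coding exon. Adam29, Adam4, Adam6a and Adam6b, whose coding sequences are also in 1 exon, had no signature.

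Of the 29 tested members, 1 was downregulated in Rfx2-/- testis and 0 were upregulated. The background was 1.94% of all tested genes called lower and 0.73% called higher. With a fold change above 2 the count of members was the same, against 1.04% of genes lower and 0.216% higher. At an unadjusted p under 0.05 in edgeR, 10 members were lower and 5 higher, against 23.7% and 18.1% of all genes. DESeq2 and limma voom also called 0 members higher. The median log2 fold change was -0.26 over the tested members and -0.05 over all genes. WT and Rfx2-/- mice did not overlap for Adam11, Adam12 and Adam22, all lower in Rfx2-/-, and for Adam30, which was higher. These are 3 and 1 of 29 members, where 5.2% and 6.5% of all tested genes did not overlap in those directions.

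**Figure D1:**
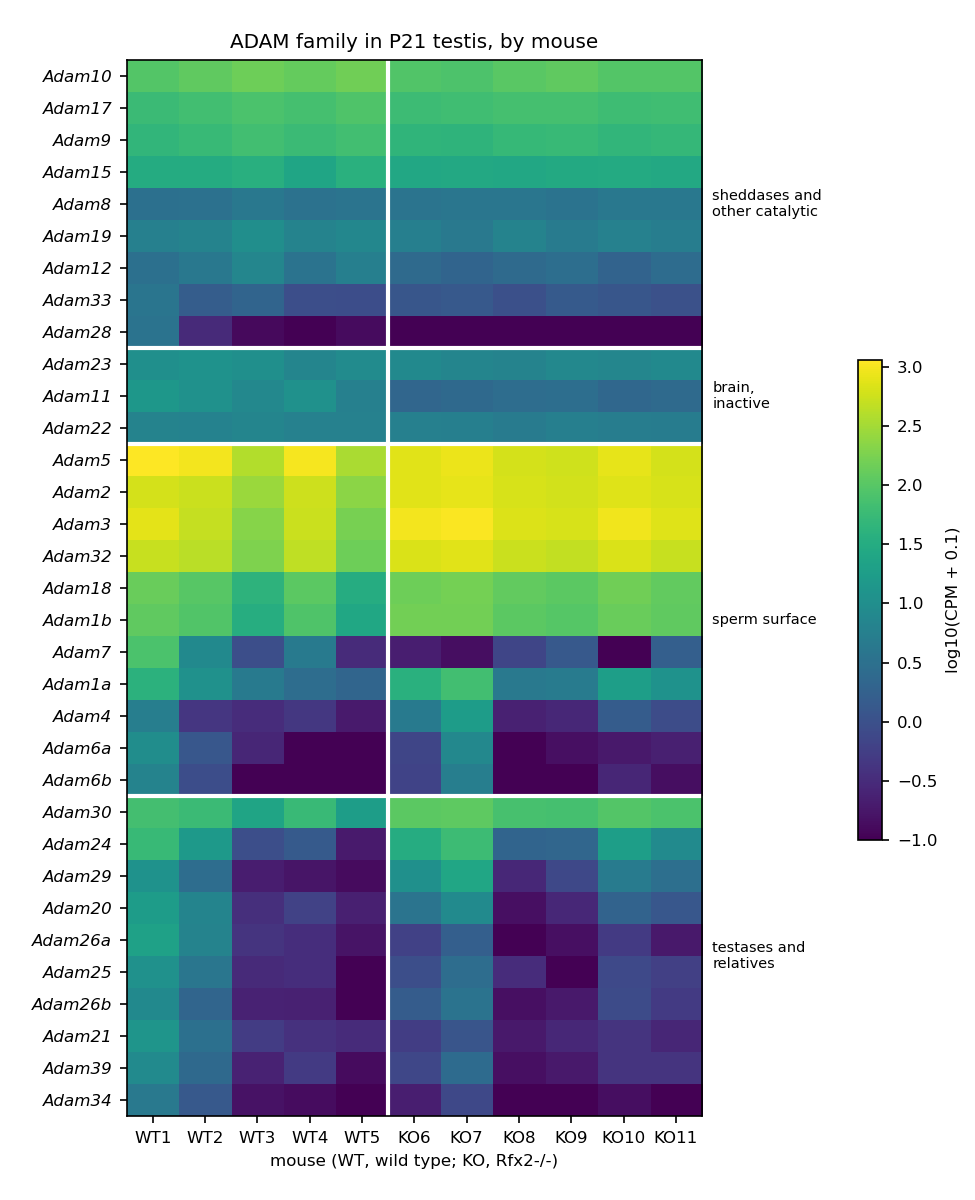
Level of the 33 ADAM genes (rows, by role) in the 11 mice (columns) as log10(CPM + 0.1), from dark (low) to yellow (high). Adam5, Adam2, Adam3 and Adam32 are the brightest rows and are dimmest in WT3 and WT5; the testases are bright in WT1 and WT2.

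Adam11 was the member called. It encodes a catalytically inactive ADAM known from neurons, a relative of the ADAM22 and ADAM23 receptors for the secreted LGI proteins. The gene is at chr11:102761439-102780262 on the plus strand, with 26 coding exons. Adam11 was at 14, 11, 7.61, 11.2 and 5.82 CPM in WT1 to WT5 and at 2.11, 2.35, 2.73, 2.85, 2.17 and 2.39 CPM in KO6 to KO11. Every Rfx2-/- mouse was below every WT mouse, and the Rfx2-/- mice lay within 1.35-fold of each other. The mean was 9.92 ± 3.23 CPM (SD, n = 5) in WT and 2.43 ± 0.294 CPM (SD, n = 6) in Rfx2-/-. The log2 fold change was -2.02 ± 0.21 (SE), a 4.07-fold fall, with an edgeR adjusted p of 0.000247. Under the 17 alternatives the adjusted p ranged from 7.17e-16 to 0.00153. In WT mice Adam11 was lowest in WT3 and WT5, the mice with the lowest sum of spermatocyte markers. In the Rfx2-/- mice these sums were 5542 to 6831 CPM. The part of spermatocyte content in the level of Adam11 was not tested. Without WT3 and WT5 the log2 fold change was -2.30 (adjusted p = 6.07e-06).

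The other members of this group were not called. Adam22 was at 5.92 to 7.04 CPM in WT (median 6.22) and at 4.76 to 5.83 CPM in Rfx2-/-, with a log2 fold change of -0.26 ± 0.09 (SE, adjusted p = 0.0682). Its groups did not overlap, with 5.92 CPM in WT4 just above 5.83 CPM in KO6, and the gene was not called. Adam23 was at 6.97 to 11.6 CPM in WT and 6.52 to 8.46 CPM in Rfx2-/- (log2 fold change -0.35 ± 0.13, adjusted p = 0.081), and its groups overlapped. Per kilobase, Adam23 (1.30 RPKM) and Adam11 (1.14 RPKM) were the highest of the 3 over all mice. Among 6 genes for the LGI ligands and the scaffold proteins of the complex, 5 were tested and 0 were called at an adjusted p of at most 0.01, with 3 at an unadjusted p under 0.05, all lower, where 23.7% of all tested genes were. Dlg4, which encodes the synaptic scaffold PSD-95, had the smallest adjusted p (log2 fold change -0.48, adjusted p = 0.0267). Dlg1, the most abundant per kilobase, was at 66.8 ± 9.42 CPM (SD, n = 5) in WT and 58.5 ± 4.70 CPM (SD, n = 6) in Rfx2-/-. Lgi1 was not tested.

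**Figure D2:**
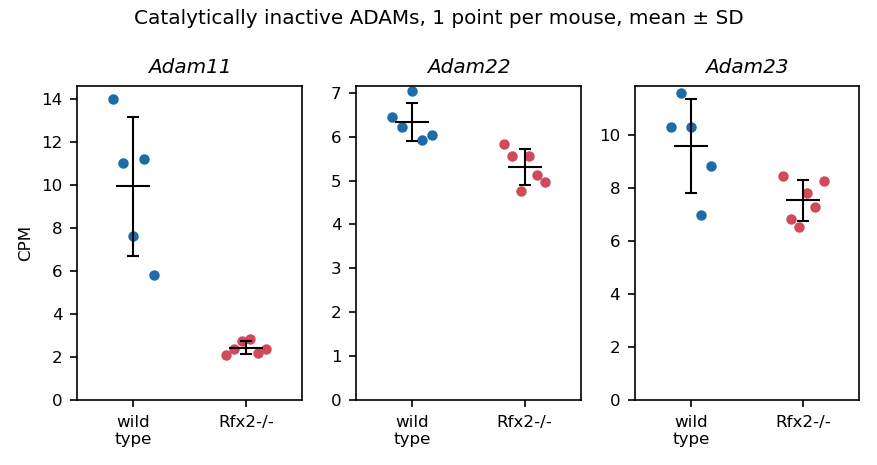
CPM of Adam11, Adam22 and Adam23 by genotype, 1 point per mouse, with the mean and SD as bars and the axis from 0. The Adam11 points separate (5.82 CPM is the lowest WT value, 2.85 CPM the highest Rfx2-/- value), whereas those of Adam23 overlap.

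Sperm surface ADAMs were the most abundant of the family. Adam2 (fertilin beta), Adam3 (cyritestin), Adam5 and Adam32 made up 65.9% to 82.0% of all counts of the family in each mouse, and the whole family took 0.16% to 0.391% of the counts. Over all mice they reached 229, 229, 236 and 195 RPKM. ADAM2 pairs with an ADAM1 protein on germ cells, and ADAM3 is the member on which binding of sperm to the egg coat depends in the mouse.

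Adam3 was at 777, 499, 210, 535 and 166 CPM in WT1 to WT5 and at 958, 1064, 688, 658, 921 and 733 CPM in KO6 to KO11. WT3 and WT5 were the lowest, and WT1 overlapped the Rfx2-/- range. The log2 fold change was 0.94 ± 0.36 (SE) and the adjusted p was 0.0829, so it was not called. Adam2, Adam32, Adam18 and Adam1b, the last encoding an ADAM1 isoform, had log2 fold changes of 0.65 to 0.85 with adjusted p of 0.0811 to 0.133. In each of the 4, WT3 and WT5 were lowest. Adam30, a zinc-site member placed with the testase relatives, was at 70.1, 58.2, 23.2, 55.9 and 18.2 CPM in WT and at 109, 112, 75.2, 71.5, 92.6 and 79.7 CPM in Rfx2-/-. Its groups did not overlap, with a log2 fold change of 1.0 ± 0.33 (SE, adjusted p = 0.0588). Among the markers of spermatocytes, Ccna1 (cyclin A1) was also low in WT3 and WT5, at 38.2 and 23.1 CPM. In the other WT mice it was at 117 to 157 CPM. Ldhc, Pgk2, Piwil1 and Mybl1 were likewise lowest in WT3 and WT5 of the WT mice. Sycp1, Sycp3 and Hormad1 did not set these mice apart: Sycp3 was at 192 CPM in WT1, 199 in WT3 and 215 in WT5. Without WT3 and WT5 the log2 fold changes of Adam3, Adam2, Adam32 and Adam30 were 0.48, 0.29, 0.37 and 0.56, with adjusted p between 0.0606 and 0.163.

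The level of Adam5 relative to Adam3, Adam32 and Adam2 was lower in every Rfx2-/- mouse than in any WT mouse. Adam18, Adam3, Adam5, Adam32 and Adam9 are consecutive on the minus strand of chromosome 8, with Adam5 at chr8:24727093-24824369. Adam5 was at 1142, 955, 392, 1011 and 355 CPM in WT and at 760, 858, 623, 590, 812 and 629 CPM in Rfx2-/-, and the groups overlapped (log2 fold change -0.11 ± 0.30, adjusted p = 0.778). The CPM ratio of Adam5 to Adam3 was 1.47, 1.91, 1.87, 1.89 and 2.15 in WT1 to WT5 and 0.793, 0.806, 0.906, 0.896, 0.881 and 0.858 in KO6 to KO11. The ratio of Adam5 to Adam32 was 2.24 ± 0.138 (SD, n = 5) in WT and 1.17 ± 0.0347 (SD, n = 6) in Rfx2-/- testis, and that to Adam2 was 1.67 ± 0.188 and 1.01 ± 0.0614. The groups did not overlap in any of the 3 ratios. On the log2 scale the genotypes differed by -1.11, -0.93 and -0.72 for Adam3, Adam32 and Adam2. These ratios were chosen after the values had been seen. The exact permutation test, two-sided, gave p = 0.00433 each (0.00433 after adjustment over the 3). Any ratio without overlap of 5 and 6 mice gives this p, so it adds nothing to the ranges. The adjustment does not cover the choice of the ratios, which all share Adam5. A ratio shows unequal change of 2 genes and not which of them changed. Such a separation was not particular to Adam5. Relative to each of the same 3 genes, Pcsk4 and Rfx2 were also lower in every Rfx2-/- mouse than in any WT mouse. The share of all tested genes that separate in this way was not computed. Without WT3 and WT5, the edgeR log2 fold change of Adam5 itself was -0.53 ± 0.13 (SE, adjusted p = 0.0327).

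**Figure D3:**
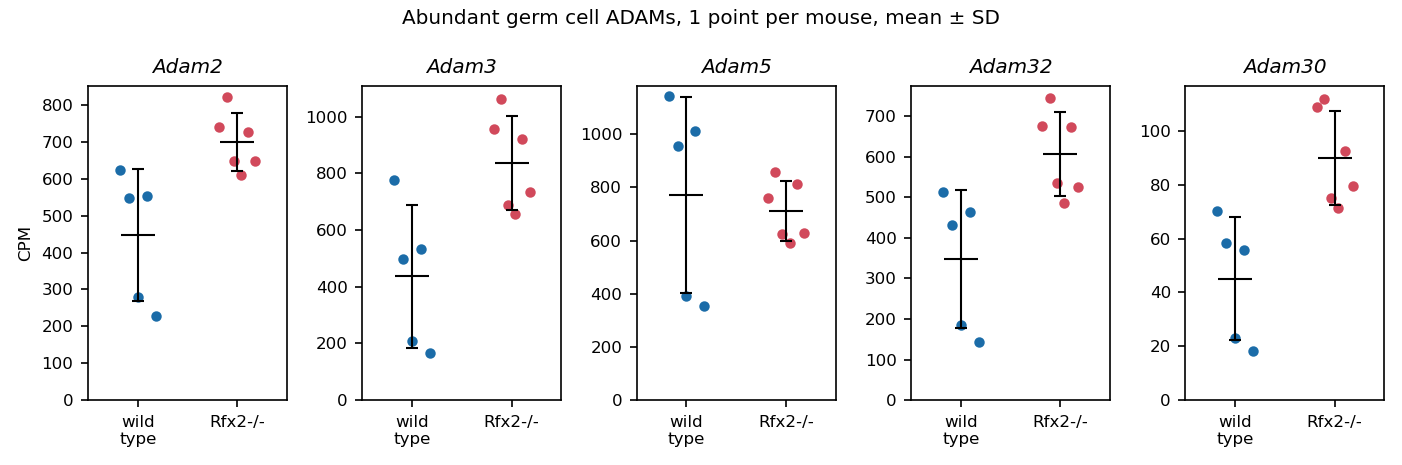
CPM of Adam2, Adam3, Adam5, Adam32 and Adam30 by genotype, 1 point per mouse, with mean and SD and each axis from 0. The 2 low WT points in every panel are WT3 and WT5. The Rfx2-/- mean is above the WT mean for all but Adam5.

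Genes that act on the maturation of ADAM3 and of ADAM complexes in germ cells were compared as a list of 15, of which 14 were tested. None was called at an adjusted p of at most 0.01 in edgeR; 1 was lower and 3 were higher at an unadjusted p under 0.05, against 23.7% and 18.1% of all tested genes. The median log2 fold change was 0.34, against -0.05 over all genes. Tex101, a surface protein of germ cells and the most abundant of the list per kilobase, was at 837 ± 107 CPM (SD, n = 5) in WT and 885 ± 92.3 CPM (SD, n = 6) in Rfx2-/-. Cmtm2a had the smallest adjusted p (log2 fold change 0.87 ± 0.32, adjusted p = 0.0762). Clgn, the calmegin chaperone of fertilin, was at 924 ± 293 CPM in WT and 1309 ± 95.1 CPM in Rfx2-/- (adjusted p = 0.0824).

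Of the other fertilin and sperm surface members, Adam1a, Adam4, Adam6a and Adam6b were highest in WT1 and KO7. These had the highest early round spermatid marker sums of their genotypes. Adam1a, an ADAM1 isoform of fertilin, was at 40.8, 11.3, 4.52, 2.70 and 2.01 CPM in WT and at 37.5, 66.4, 4.25, 4.80, 18.6 and 11.5 CPM in Rfx2-/-. Its log2 fold change was 0.96 ± 0.92 (SE, adjusted p = 0.433). In the annotation, 77.8% of the windows of 50 nt in its exons also occur in other genes, so its counts are uncertain. Counts of Adam1b are uncertain too, as 32.4% of its windows occur in Adam1a. Adam4 was at 5.43 CPM in WT1 and 17.1 CPM in KO7 and at most 4.63 CPM in the others (log2 fold change 1.66 ± 1.34, adjusted p = 0.353). The untested Adam6a and Adam6b, with total counts of 530 and 356 over the 11 mice, were high in the same 2 mice, at 9.79 and 6.48 CPM in WT1 and 7.84 and 5.33 CPM in KO7. In KO6 they were at only 0.599 and 0.559 CPM, although its marker sum of 240.9 CPM was near the 257.2 CPM of WT1. Adam6a and Adam6b share 29.5% of their windows with each other.

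Adam7, best known from the epididymis, had the lowest log2 fold change of the family, -4.99 ± 1.48 (SE), with an adjusted p of 0.047 that missed the threshold. It was at 80.9, 8.31, 0.852, 4.56 and 0.22 CPM in WT1 to WT5 and at 0.12, 0.0413, 0.601, 1.24, 0 and 1.57 CPM in KO6 to KO11. WT1 was highest, WT2 and WT4 were also above every Rfx2-/- mouse, and WT3 and WT5 were within the Rfx2-/- range. The summed CPM of 6 epididymis markers was 329 in WT1, 69.3 in WT4 and 28.5 in WT2, and ran from 0.435 to 65 in Rfx2-/- mice. Crisp1 alone made up 262, 68.3 and 15.3 CPM in WT1, WT4 and WT2, and 62.4 CPM in KO9. Lcn5 was at 25.9 CPM in WT1 and 5.52 CPM in WT2 but at 0.526 CPM in WT4. Lcn8 and Lcn9, epididymal lipocalins, were at 4.47 and 2.36 CPM in WT1 and below 1 CPM in all the other mice. Without WT1 the log2 fold change of Adam7 was -2.54 (adjusted p = 0.0831). Adam28, with 103 counts in all, was at 3.35 CPM in WT1, at 0.202 CPM or less in the other WT mice, and at 0 in all 6 Rfx2-/- mice. The part of epididymal RNA in these 2 genes was not tested.

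The testases varied widely between mice of 1 genotype. Adam24 (testase 1), the most abundant of them per kilobase at 6.18 RPKM over all mice, was at 53.4, 15.5, 0.852, 1.33 and 0.0943 CPM in WT1 to WT5 (3 counts in WT5) and at 32.5, 61.1, 1.90, 2.09, 18.9 and 8.71 CPM in KO6 to KO11. Its high mice were WT1, WT2, KO6, KO7, KO10 and KO11, which were also those with 77.9 CPM or more of summed early round spermatid markers. Adam26a was at 21.0, 6.39, 0.312, 0.245 and 0.0629 CPM in WT1 to WT5. In KO6 to KO11 it was at 0.519, 1.57, 0, 0.0445, 0.391 and 0.0871 CPM. WT1 and WT2 were above every Rfx2-/- mouse, but the other 3 WT mice were within the Rfx2-/- range. Compared by genotype alone its log2 fold change was -3.65 ± 1.42 (SE), with an adjusted p of 0.0847. Adam21 followed, at 13.1, 2.99, 0.426, 0.28 and 0.22 CPM in WT and 0.0925 to 1.07 CPM in Rfx2-/- (log2 fold change -3.15 ± 1.10, adjusted p = 0.0664). Adam25, Adam39, Adam26b and Adam20 had log2 fold changes of -1.87, -1.80, -1.03 and -0.94 with adjusted p of 0.268 to 0.583. Adam24 and Adam29 had positive values, 0.55 ± 1.30 and 1.35 ± 1.43 (SE), adjusted p of 0.752 and 0.475. None of these was called.

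Mice with like sums of the early round spermatid markers were set side by side. WT2 and KO11 had 78.0 and 77.9 CPM of these, although their sums of late spermatid markers were 162 and 114 CPM. In this pair Adam29 was at 2.76 and 2.92 CPM and Adam1a at 11.3 and 11.5 CPM. Adam24 was at 15.5 CPM in WT2 and 8.71 CPM in KO11. Adam26a, by contrast, was at 6.39 CPM (190 counts) in WT2 and 0.0871 CPM (2 counts) in KO11. Adam21 was at 2.99 and 0.174 CPM, Adam25 at 3.77 and 0.479 CPM, Adam39 at 2.35 and 0.305 CPM, Adam20 at 6.56 and 1.18 CPM, and Adam26b at 2.02 and 0.392 CPM. WT1 and KO6, with 257 and 241 CPM of the early and 722 and 399 CPM of the late markers, had Adam29 at 11.7 and 10.6 CPM, Adam1a at 40.8 and 37.5 CPM and Adam26a at 21.0 and 0.519 CPM. The untested Adam34, with 183 counts in all, was at 1.24 CPM in WT2 and 0 in KO11, and at 4.33 CPM in WT1 and 0.12 CPM in KO6. Adam6a and Adam6b, untested and without the signature, were at 9.79 and 6.48 CPM in WT1 and 0.599 and 0.559 CPM in KO6. In WT2 they were at 1.18 and 0.807 CPM and in KO11 at 0.131 and 0.0435 CPM. Adam4, also without it, was at 5.43 and 4.63 CPM in WT1 and KO6 and at 0.336 and 0.784 CPM in WT2 and KO11.

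**Figure D4:**
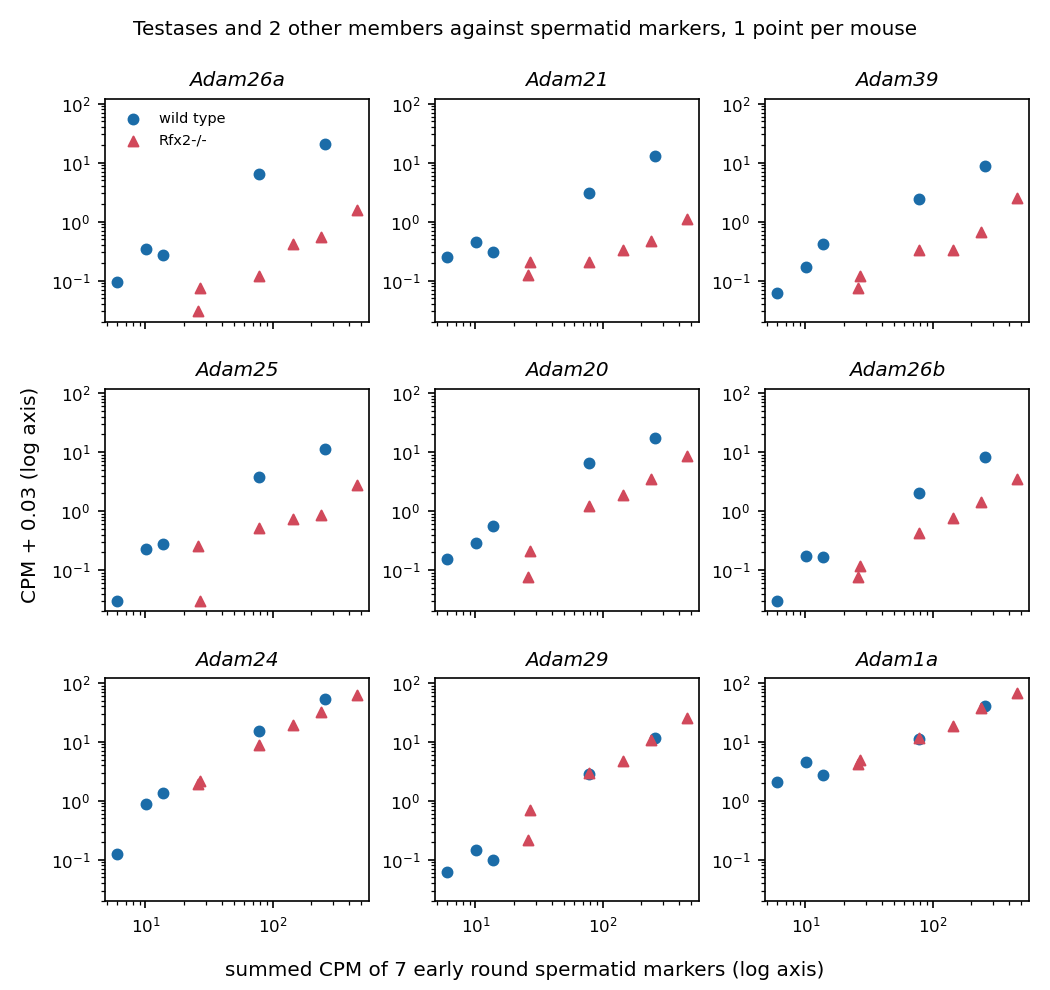
CPM + 0.03 of 9 members against the summed CPM of 7 early round spermatid markers, both on log axes, 1 point per mouse (circles WT, triangles Rfx2-/-). WT2 and KO11, at 78.0 and 77.9 on the horizontal axis, are far apart for Adam26a and Adam21 and together for Adam29 and Adam1a.

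Expressed per 100 CPM of the marker sum, Adam26a was at 1.05 to 8.19 in WT and 0 to 0.339 in Rfx2-/-. Adam21 was at 2.05 to 5.11 in WT and 0.182 to 0.663 in Rfx2-/-, and Adam20 at 2.11 to 8.41 and 0.179 to 1.87. In these 3 of the 29 tested members the genotypes did not overlap, all lower in Rfx2-/-, against 1.11% of all tested genes lower and 0.0191% higher. In Adam39, at 0.526 to 3.34 in WT and 0.179 to 0.545 in Rfx2-/-, and in Adam25, Adam26b and Adam34 they overlapped. For Adam24 the ranges were 1.58 to 20.8 and 7.32 to 13.5. WT5 contributed few reads to these ratios, with 2 counts of Adam26a and 4 of Adam20.

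The genotype effect was therefore also fitted in edgeR with the mean log2 CPM of the 7 markers as a covariate. In that fit 7 of the 29 members (24.1%) were called lower by more than 2-fold and 0 higher, against 2.55% and 0.279% of all tested genes. They were Adam11 and 6 testases, from a role group of 9 tested members that includes Adam29 and Adam30. They were also the only members called at any fold. Adam26a had the largest fall of them, with a log2 fold change of -5.06 ± 0.29 (SE) and an adjusted p of 7.37e-07. Adam21 was at -3.99 ± 0.28 (SE), 15.8-fold lower. The log2 fold changes of Adam39, Adam25, Adam20 and Adam26b were -3.13, -3.01, -2.39 and -2.29, with adjusted p of 1.26e-05 to 0.00042. All 6 carry the zinc signature and a single coding exon, as do 10 of the tested members. Of the others with both, Adam24, beside Adam25, was at -0.58 ± 0.18 (SE, adjusted p = 0.0466), Adam30 at 0.65, Adam1b at 0.49 and Adam1a at -0.25, and none was called. Adam29 and Adam4, without the signature, were at 0.09 ± 0.25 and -0.13 ± 0.61 (SE), with adjusted p of 0.812 and 0.899. The difference between Adam24 and the 6 others was not tested.

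The 7 called members stayed called in the covariate fit without any 1 mouse. Without WT1, which held the most counts of these genes, Adam26a was at -5.66 (adjusted p = 8.20e-06) and Adam21 at -3.54 (adjusted p = 0.00024). With late spermatid markers as the covariate instead, Adam26a, Adam21, Adam39 and Adam11 were called, but Adam25, Adam20 and Adam26b, at -1.96, -1.29 and -1.16, had adjusted p of 0.0128 to 0.0227. Markers themselves moved in the early marker fit: 4 of the 9 late spermatid markers were called lower, among them Akap4, of the sperm tail sheath, at -2.07 ± 0.18 and Prm2, the protamine 2 gene, at -2.33 ± 0.37 (SE). The late marker sums were higher in the WT mouse of both pairs set side by side above. Whether the testases followed these later genes was not tested. Counts of Adam25, Adam20 and Adam39, and of Adam26a and Adam26b, are uncertain between near-identical copies: 34.2% to 36.7% of their windows of 50 nt occur in another gene.

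**Figure D5:**
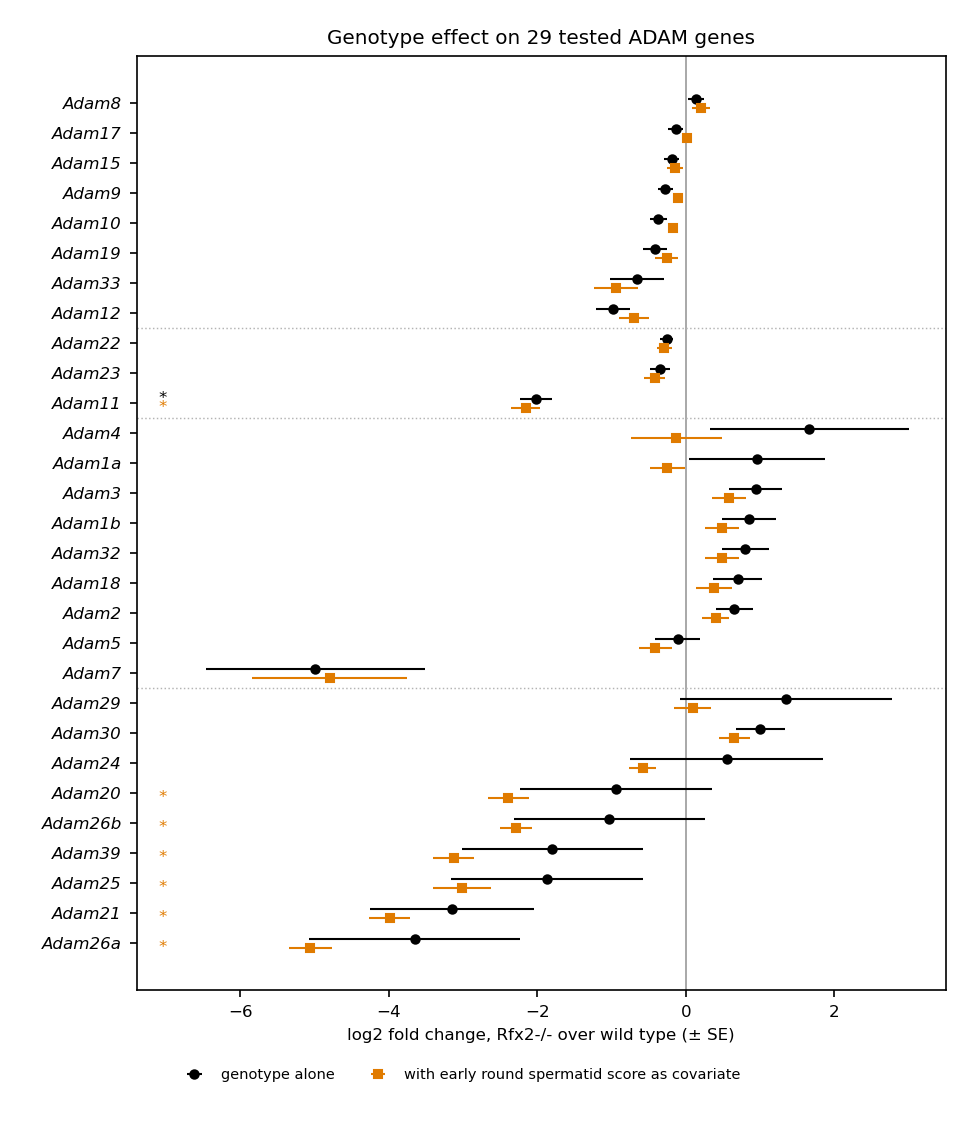
Log2 fold change, Rfx2-/- over WT, with its SE for the 29 tested members, by genotype alone (black circles) and with the early round spermatid score as a covariate (orange squares). Stars mark an adjusted p of at most 0.01, which only Adam11 has in black and Adam11 and 6 testases have in orange.

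Promoter sequences from RefSeq (GRCm38.p6, 250 bases before to 50 bases after the start) were found for 17 members; for Adam11, Adam24, Adam26a and Adam39, among others, none was used here. They were searched on both strands for the RFX half-site GTTGCC and for a wider form with any base at its position 4. The half-site was in 2 of the 19 promoters of these members, Adam26b and 1 of 3 of Adam19, against 12.5% of all 32851 promoters. The wider form, which includes the first, was in 9 of 19, against 45.3%. None of these 19 had an inverted pair of the wider form 1 to 3 bases apart, which 0.886% of all promoters had. The promoters of Adam25 and Adam20, which fell together with the covariate, had neither form and were 93.4% identical to each other. Both hold GTTGCT, which differs from GTTGCC only in its last base, as do other member promoters, such as those of Adam26b and Adam8. Forms with another last base were not searched for, so related sites can be missed. The promoters of Adam25 and Adam20 are shown with capitals at the bases that differ or have no partner.
Adam25, chr8:40751958-40752257, plus strand: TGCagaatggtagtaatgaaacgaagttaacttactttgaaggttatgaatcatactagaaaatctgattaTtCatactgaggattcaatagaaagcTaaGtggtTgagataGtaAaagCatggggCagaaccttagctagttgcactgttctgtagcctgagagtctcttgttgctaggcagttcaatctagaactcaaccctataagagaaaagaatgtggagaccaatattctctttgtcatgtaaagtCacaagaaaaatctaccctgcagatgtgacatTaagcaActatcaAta
Adam20, chr8:40793023-40793322, plus strand: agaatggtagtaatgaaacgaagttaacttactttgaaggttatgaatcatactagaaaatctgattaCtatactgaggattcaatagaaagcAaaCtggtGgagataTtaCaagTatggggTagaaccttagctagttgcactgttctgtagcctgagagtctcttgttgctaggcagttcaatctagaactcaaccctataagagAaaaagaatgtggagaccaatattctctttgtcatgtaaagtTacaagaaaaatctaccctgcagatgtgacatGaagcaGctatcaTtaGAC
A match or its absence in this window is a description of the letters only.

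None of the sheddases of many tissues was called. Adam10 and Adam17, which release among others the Notch receptors and tumour necrosis factor from the cell surface, were the most abundant of these 9 members per kilobase, at 24.0 and 15.5 RPKM over all mice. Adam10 was at 94.1, 115, 143, 125 and 151 CPM in WT1 to WT5 and at 89.5, 83.6, 105, 116, 95.1 and 94.2 CPM in KO6 to KO11. WT3 and WT5 were the highest and the groups overlapped (log2 fold change -0.37 ± 0.12, adjusted p = 0.0586). Adam17 was at 73.2 ± 11.3 CPM (SD, n = 5) in WT and 66.7 ± 5.14 CPM (SD, n = 6) in Rfx2-/- (log2 fold change -0.14 ± 0.10, adjusted p = 0.303). Adam9 was at 46.9 to 67.7 CPM in WT and 44.0 to 54.1 CPM in Rfx2-/- (adjusted p = 0.0719). WT3 and WT5 also had the highest sums of Sertoli cell markers, 785 and 865 CPM, against 488 to 679 CPM in the others. Without those 2 mice the log2 fold changes of Adam10, Adam9 and Adam17 were -0.19, -0.13 and 0.02.

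Adam12, a sheddase with roles in muscle and growth factor release, came closest to the threshold in this group. It was at 3.07, 4.04, 7.07, 3.36 and 5.63 CPM in WT and at 2.47, 1.90, 2.4, 2.85, 1.83 and 2.66 CPM in Rfx2-/-, and the groups did not overlap. The log2 fold change was -0.98 ± 0.23 (SE) with an adjusted p of 0.0245 in edgeR and 0.00209 in DESeq2. Without WT3 and WT5 it was -0.56 (adjusted p = 0.0762). Adam8, of leukocytes, had the highest value of the group (0.14 ± 0.11, adjusted p = 0.324). Adam15, Adam19 and Adam33 had log2 fold changes of -0.19, -0.42 and -0.66, none called.

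The partners of the sheddases were not called either. Of 18 regulators, which include the iRhoms, the TspanC8 tetraspanins, the TIMP inhibitors and the proprotein convertases, 16 were tested and 0 called in edgeR, with 8 lower and 2 higher at an unadjusted p under 0.05, against 23.7% and 18.1% of all tested genes. Frmd8, a stabiliser of the iRhom complex with ADAM17, had the smallest adjusted p, at 65.8 to 108 CPM in WT and 130 to 148 CPM in Rfx2-/- (log2 fold change 0.63 ± 0.13, adjusted p = 0.0167). Tspan15, a partner of ADAM10, was at 7.13 ± 1.18 CPM in WT and 4.52 ± 0.703 CPM in Rfx2-/- (log2 fold change -0.66 ± 0.14, adjusted p = 0.0184). Timp2, the most abundant regulator per kilobase, was at 248 ± 37.4 and 189 ± 12.3 CPM (adjusted p = 0.0288). Of 19 substrates, 15 were tested and 0 called, with 9 lower and 1 higher at an unadjusted p under 0.05, against 23.7% and 18.1% of all tested genes. The sums of Sertoli, macrophage and endothelial cell markers were highest in WT3 and WT5; their part in these values was not tested. App, the amyloid precursor and the most abundant substrate per kilobase, was at 286 ± 56.7 CPM in WT and 228 ± 22.4 CPM in Rfx2-/- (adjusted p = 0.0817). The substrate with the smallest adjusted p was Cd44 (log2 fold change -0.43 ± 0.12, adjusted p = 0.0382).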

How the data were processed

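RNA-Seq of decapsulated testis was analysed for 5 wild type and 6 Rfx2-/- mice at P21. Per the labels and the study's methods, the authors made TruSeq libraries, mapped reads to GRCm38 (CASAVA 1.8.2 and STAR 2.4 are named in the submitters' processing notes), discarded reads with several positions and counted reads on merged exons with featureCounts 1.4.6; the methods give differing read lengths and aligners. The deposited values are raw counts of 23074 genes, of which 22293 matched GENCODE vM21. The study used DESeq with a p of at most 0.01. Here, edgeR 4.0.16 in R 4.3.3 was used on all genes (filterByExpr, TMM, glmQLFit, glmQLFTest, genotype only), with limma 3.58.1 and DESeq2 1.42.0 as alternatives; the scripts were tested on simulated data. P-values measure the spread between mice. Intervals and floors cover counting error only.

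The members and the gene lists were chosen with earlier results of these data known. Named were every called member, the 2 most abundant members of each role, the members with the lowest and highest fold change of each role, the untested members, and for each pathway list its called and its most abundant gene; other genes were named after their values were seen. Marker scores are mean log2 CPM with a prior count of 2. Single values were tested by exact permutation of the mice between genotypes, two-sided, over 462 assignments. Alternatives were DESeq2 size factors, total counts as library sizes, no filter beyond 1 count, DESeq2, limma voom, an early round spermatid score as a covariate, an unadjusted p and each mouse left out. The late spermatid score, the fits of the covariate without each mouse, the fit without WT3 and WT5 and the Adam5 ratios were chosen after seeing the data. Windows of 50 nt of each member's exons were looked up in all other vM21 transcripts. Per mouse, totals ran from 22232097 to 29769483 counts.

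The marker lists were scored in both genotypes and compared over 11 lists. Before adjustment, spermatocyte markers were higher in Rfx2-/- (mean log2 CPM 8.29 in WT, 8.75 in Rfx2-/-, exact permutation p = 0.026) and Sertoli cell markers lower (5.86 and 5.55, exact permutation p = 0.0303). After adjustment over the lists both had p = 0.167 (exact permutation). For spermatogonia, early and late spermatids, Leydig, peritubular myoid, macrophage, endothelial, epididymis and red blood cell markers the exact permutation p ranged from 0.0606 to 0.978.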

Additional observations from a re-analysis of the deposited data

Results flagged for a closer look

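Within a genotype, 1 mouse stood far from the others in 20 of 66 groups of values examined (33 members in 2 genotypes). The limit flags about 1 in 20 groups of independent, normally distributed values. Many members rose together in the same mice, so the 20 flags cannot be set against that rate. The distant mouse was WT1 in 12 cases and KO7 in 8, always as the highest value. These are also the mice with the highest early round spermatid marker sums of their genotypes, 257 and 462.2 CPM.

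In WT1, Adam24 was at 53.4 CPM, Adam1a at 40.8, Adam21 at 13.1, Adam29 at 11.7, Adam39 at 8.60 and Adam26b at 8.28 CPM. Adam4 was at 5.43, Adam6a at 9.79, Adam6b at 6.48 and the untested Adam34 at 4.33 CPM in that mouse. Adam7, at 80.9 CPM, and Adam28, at 3.35 CPM, were also far above the next WT mouse, which was at 8.31 and 0.202 CPM.

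In KO7, Adam4 was at 17.1 CPM, Adam6a at 7.84, Adam6b at 5.33, Adam25 at 2.72 and Adam39 at 2.52 CPM. Adam26a was at 1.57, Adam21 at 1.07 and Adam34 at 0.661 CPM there. The next Rfx2-/- mouse was at 4.63 CPM for Adam4 and 0.519 CPM for Adam26a. The fold changes that could be fitted without these mice are given in the next part for the members they move most.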

How the results depend on the processing

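No paired analysis was possible because the mouse numbers of the 2 genotypes are not shared. The 1 member called lower became 4 with the DESeq2 Wald test (Adam7, Adam12 and Adam21 added), 7 with the early round spermatid score as a covariate, and 3 at an unadjusted p of at most 0.01. Over 2-fold these counts were 3, 7 and 2. DESeq2 size factors, total counts, no filter, limma voom, each mouse left out and the fit without WT3 and WT5 left them at 1. In no setting was a member called higher. With the covariate, the 7 members called lower became 4 with the late spermatid score, and 7 to 8 without any 1 mouse; the cause was not tested.

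Of 510 log2 fold changes of members under the alternatives, 487 kept their direction and their side of the threshold, 9 became called and 14 changed sign, none of them called. With the covariate, Adam1a was at -0.25, Adam4 at -0.13, Adam24 at -0.58 and Adam17 at 0.02. With limma voom, Adam5 was at 0.02 and Adam26b at 0.50. Total counts as library sizes, which moved the median of all genes to -0.22, gave Adam8 -0.04. Leaving out 1 mouse, Adam5 ranged from -0.28 (without WT5) to 0.07 (without WT1), Adam20 from -1.86 (without KO7) to 0.47 (without WT1) and Adam26b from -1.96 (without KO7) to 0.85 (without WT1); without WT4 Adam5 was at 0.00; without KO7 Adam24 was at -0.15; without WT3 and WT5 Adam17 was at 0.02 and Adam24 at -0.17. Without WT1 the log2 fold changes of Adam21, Adam25 and Adam39 were -1.35, -0.33 and -0.14, and those of Adam4, Adam29, Adam24 and Adam1a 3.99, 3.33, 2.23 and 2.21. Without KO7, Adam1a was at 0.32, Adam29 at 0.39 and Adam25 at -2.75. Adam26a without WT1 or KO7 and Adam4, Adam21 and Adam39 without KO7 did not pass the filter. Without any 1 mouse the log2 differences of the Adam5 ratios were -1.19 to -1.05 for Adam3, -0.95 to -0.89 for Adam32 and -0.78 to -0.68 for Adam2. Adam28, Adam34, Adam6a and Adam6b, with 103 to 530 counts in all, did not pass the filter, with most of those counts in WT1 or in WT1 and KO7.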
